A study of Mus musculus with 4 samples.

Results

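The 5 genes of the apelin and Cxcl12 signalling pathways described here are *Apln*, *Apela*, *Aplnr*, *Cxcl12* and *Cxcr4*. They were chosen by symbol, 5 of the 19616 genes listed in at least 1 of the single-cell count tables, and all 5 were present in each table. Embryos of the mid to late streak stages (MS-LS, age E6+21h), of the stages OB-EB (age E7+3h) and of the EHF stage (age E7+14h) were each pooled into 1 droplet library of 3635, 3994 and 3494 cells. The embryos of all 3 libraries had the genotype TnEGP-CreERT2/+; R26Rtdtomato/R26Rtdtomato. The CreERT2 of this allele is made in cells that express *T*, which marks the streak, and tdTomato is the reporter it switches on. All had received tamoxifen through the mother by gavage, at 0.08 mg/bw, which was given at E6+5h for MS-LS, at E6+21h for OB-EB and at E7+7h for EHF. No embryo without the alleles or without tamoxifen was analysed here, and cells were not assigned to embryos.

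*Apln* and *Apela* encode secreted peptides that both act on the G protein-coupled receptor made from *Aplnr*. *Apela*, also called Elabela or Toddler, is known for its role in the movement of mesendodermal cells during gastrulation, and apelin for its role in the growth of blood vessels. *Cxcl12* encodes a chemokine that guides migrating cells, among them germ cells, blood stem cells and endoderm, through the receptor made from *Cxcr4*. In both pathways a peptide or protein secreted by some cells is read by the receptor on others.

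On the GRCm38 annotation *Apln* lies at chrX:48025146-48034853 on the minus strand and *Apela* at chr8:65028417-65037336 on the minus strand. *Aplnr* lies at chr2:85136225-85139923 on the plus strand, *Cxcl12* at chr6:117168535-117181367 on the plus strand and *Cxcr4* at chr1:128588199-128592293 on the minus strand. All 5 are protein-coding genes. *Apela* overlaps 1 annotated gene of the same strand, Gm45886, which was not a row of the tables, and the other 4 overlap none. RefSeq promoter sequences of GRCm38.p6 were matched for 4 of the 5 genes, all but *Aplnr*. The 200 bases before the start are shown for the 3 ligand genes. Capitals mark a match to a TCF/LEF core (CTTTGA), a T-box core (TCACAC) or a SMAD core (CAGACA), searched on both strands, and the motifs do not overlap one another in these windows.
Apln, chrX:48034854-48035053, minus strand: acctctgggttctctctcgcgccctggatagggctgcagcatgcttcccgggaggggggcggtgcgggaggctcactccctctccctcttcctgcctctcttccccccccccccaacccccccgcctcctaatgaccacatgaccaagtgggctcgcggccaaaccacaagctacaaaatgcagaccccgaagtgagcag
Apela, chr8:65037337-65037536, minus strand: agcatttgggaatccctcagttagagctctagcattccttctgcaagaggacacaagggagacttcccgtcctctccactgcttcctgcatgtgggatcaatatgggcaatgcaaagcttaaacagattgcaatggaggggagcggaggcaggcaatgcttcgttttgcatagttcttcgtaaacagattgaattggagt
Cxcl12, chr6:117168335-117168534, plus strand: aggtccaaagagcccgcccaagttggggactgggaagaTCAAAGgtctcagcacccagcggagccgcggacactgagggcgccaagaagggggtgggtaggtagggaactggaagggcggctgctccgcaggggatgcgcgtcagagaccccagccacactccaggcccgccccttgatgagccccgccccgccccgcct
The *Cxcl12* window held 1 TCF/LEF core, on the other strand, 162 bases before the start. The windows of *Apln*, *Apela* and *Cxcr4* held none of the 3 cores. Of 32851 mouse promoter windows of the same length, 10.9% held the TCF/LEF core, 9.85% the T-box core and 13.8% the SMAD core. The GC content of the windows was 65.0% for *Apln*, 48.0% for *Apela*, 68.5% for *Cxcl12* and 61.0% for *Cxcr4*.

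Each level is in CPM, which counts a gene's UMIs (unique molecular identifiers, 1 for each captured molecule) per 1000000 UMIs of the cells in a group. The assay reads 3′ ends, so a level does not depend on transcript length. Cells were clustered in each library without these 5 genes among the clustering genes, and clusters were named by marker genes, written as X-like. Related classes were joined into compartments. The streak compartment held 157 primitive streak-like cells at MS-LS, 115 cells of 1 cluster between the primitive streak-like and caudal epiblast-like classes at OB-EB, and 232 caudal epiblast-like cells at EHF. The mesoderm compartment held 330, 308 and 739 cells, which were nascent mesoderm-like at MS-LS and OB-EB and presomitic, paraxial, cardiac or unresolved mesoderm at EHF. Each stage is 1 library, so values carry exact 95% intervals for counting error only, no test between stages or cell types was made, and spread between embryos is not known.

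The libraries held 17966956, 12181436 and 20376539 UMIs, with median UMIs per cell of 4251, 2620.5 and 5584. Pairs of libraries shared 12 to 18 cell barcodes. The cells that could be assigned a sex were 51.7% female at MS-LS, 63.2% at OB-EB and 85.7% at EHF, so the pools differed in their sex makeup. Each named class rested on at least 3 detected markers, and 3057, 2558 and 2763 cells had a compartment. Extraembryonic ectoderm-like cells, a trophoblast class, are given beside each gene as a background class. At EHF a cluster of 129 cells that scored highest on the markers of this class was left unnamed and is not part of it.

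*Apln*, the apelin ligand, was highest in visceral endoderm-like cells and in the streak at MS-LS and EHF, and in visceral endoderm-like and node and notochord-like cells at OB-EB. *Apela*, the other ligand of the same receptor, was highest in node and notochord-like cells at the first 2 stages and in definitive endoderm-like cells at EHF. *Aplnr*, their receptor, was high in mesoderm, endothelium-like and OB-EB blood progenitors-like cells, and at EHF was highest in node and notochord-like cells. *Cxcl12* was highest in epiblast and ectoderm and, at MS-LS, in the streak. Its receptor *Cxcr4* was highest in mesoderm, definitive endoderm and extraembryonic mesoderm at the first 2 stages and low at EHF.

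**Figure D1:**
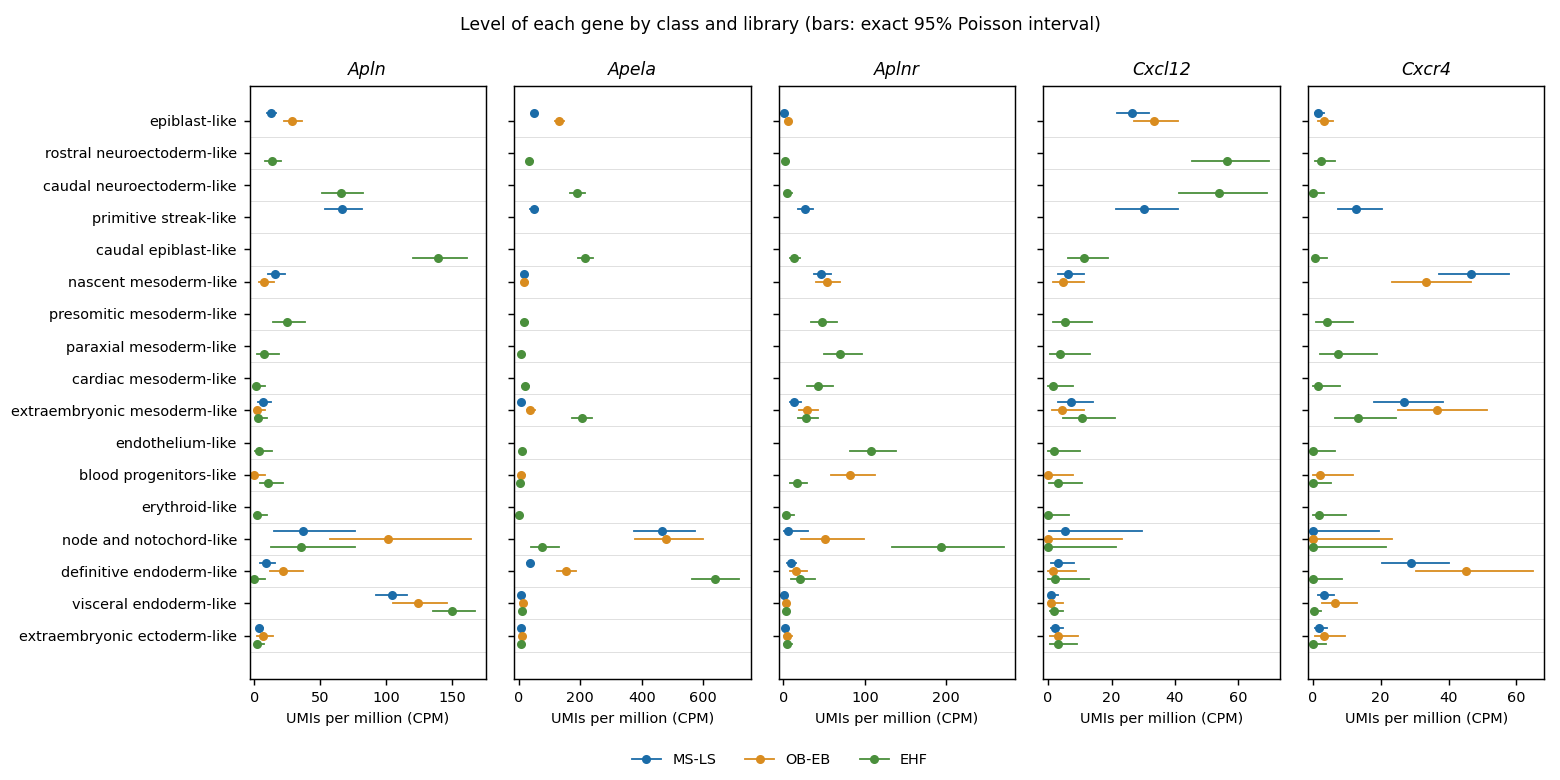
Level of each gene in CPM (x axis, a separate linear scale for each gene) in each class (rows), with 1 colour for each library, for classes of at least 30 cells. The OB-EB streak cluster had no class and is not drawn; points are the level and bars the exact 95% Poisson interval of the UMI sum. *Apln* stands out in visceral endoderm-like and streak classes and in node and notochord-like cells at OB-EB, and *Apela* in node and notochord-like and definitive endoderm-like cells. *Aplnr* stands out in node and notochord-like cells at EHF, in endothelium, in OB-EB blood progenitors-like cells and in mesoderm. *Cxcl12* stands out in ectoderm and *Cxcr4* in mesoderm and definitive endoderm.

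Over whole libraries *Apln* had 586 UMIs in 408 cells at MS-LS, 432 UMIs in 325 cells at OB-EB and 769 UMIs in 488 cells at EHF, which is 32.6, 35.5 and 37.7 CPM. The whole-library level thus differed little between the libraries. In visceral endoderm-like cells *Apln* stood at 104 CPM (95% interval 92.4 to 116) at MS-LS, at 124 CPM (105 to 146) at OB-EB and at 150 CPM (135 to 167) at EHF. Visceral and parietal endoderm together held 52.2%, 35.0% and 43.7% of all *Apln* UMIs of the 3 libraries. The extraembryonic ectoderm-like cells stood at 3.91, 6.46 and 2.05 CPM, with 2.23%, 2.05% and 1.38% of cells holding an *Apln* UMI. Those shares compare with 33.8%, 29.1% and 53.2% in visceral endoderm-like cells, at median depths of 4838, 3034.5 and 6703 UMIs in the former and 4678, 3178 and 6432 in the latter. After thinning of every cell to 2000 UMIs, 16.2%, 19.6% and 20.6% of visceral endoderm-like cells kept an *Apln* UMI.

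The visceral endoderm-like clusters did not carry *Apln* evenly. At MS-LS, cluster 15, led by *Dram1*, *Maf* and *Igfbp5*, stood at 151 CPM (129 to 175) and cluster 0, led by *Lgals2*, *Fabp1* and *Apoc2*, at 107 CPM (88.8 to 128). Cluster 11 of the same class, led by *Spp2*, *Spink1* and *Srgn*, stood at 20.7 CPM (11.3 to 34.7), below the other two. At OB-EB, cluster 13, led by *Slc2a2* and *Cldn2*, stood at 173 CPM (144 to 206) and cluster 11, led by *Spink1*, *Ttr* and *Amn*, at 51.6 CPM (33.4 to 76.2). At EHF the 3 clusters of the class lay at 166, 132 and 104 CPM, the last from 5 UMIs in 30 cells, and their intervals overlapped. The difference between clusters was thus seen at the first 2 stages.

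In the streak compartment *Apln* stood at 66.3 CPM (53.2 to 81.7) at MS-LS, 65.8 CPM (40.2 to 102) at OB-EB and 139 CPM (120 to 161) at EHF. In mesoderm it stood at 15.9 CPM (10.6 to 23.0), 7.65 CPM (3.30 to 15.1) and 22.2 CPM (18 to 27.1). The streak lay above the mesoderm in each library, with log2 ratios of 2.06 (1.43 to 2.73), 3.10 (1.86 to 4.5) and 2.64 (2.28 to 3.01). Epiblast-like cells, from which the streak forms, had 12.4 CPM (9.31 to 16.3) at MS-LS and 28.8 CPM (22.9 to 35.8) at OB-EB. At EHF the caudal neuroectoderm-like cells, which neighbour the caudal epiblast, stood at 65.4 CPM (51.3 to 82.1) and the rostral ones at 13.5 CPM (8.34 to 20.6). *Apln* was thus higher at the caudal than at the rostral end of the ectoderm. Within the EHF mesoderm *Apln* ranged over the classes from 24.5 CPM (14.5 to 38.7) in presomitic to 7.36 CPM (2.01 to 18.9) in paraxial and 1.42 CPM (0.0360 to 7.92) in cardiac mesoderm-like cells, and neighbours in that order had overlapping intervals. An unnamed cluster of the compartment, led by *Fgf4*, *Gal* and *Mixl1*, stood above these classes at 90.1 CPM (69.0 to 115) and held 62 of the 98 *Apln* UMIs of the EHF mesoderm. Node and notochord-like cells had 37.1 CPM (14.9 to 76.4), 101 CPM (57.7 to 164) and 35.1 CPM (12.9 to 76.3). Endothelium-like cells at EHF had 2 *Apln* UMIs in 87 cells, and the 75 definitive endoderm-like cells of that stage had none, which allows up to 6.89 CPM.

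*Apela* had 576 UMIs in 363 cells at MS-LS, 911 UMIs in 499 cells at OB-EB and 1388 UMIs in 666 cells at EHF. Its level over the whole library was 32.1, 74.8 and 68.1 CPM. In node and notochord-like cells, which make the midline mesoderm and the pit that sets left and right, *Apela* stood at 466 CPM (374 to 574) at MS-LS and 479 CPM (378 to 600) at OB-EB. At EHF the 43 cells of that class, led by cilium genes, stood at 75.9 CPM (40.4 to 130), a log2 ratio of -2.66 (-3.63 to -1.80) against OB-EB. Definitive endoderm-like cells ran the other way, at 35.3 CPM (25.7 to 47.2), 153 CPM (124 to 186) and 638 CPM (565 to 718). The log2 ratios between successive stages were 2.12 (1.59 to 2.66) and 2.06 (1.72 to 2.41). At MS-LS 128 of the 283 definitive endoderm-like cells formed a cluster led by *Kitl*, *Fzd5* and *Pga5*. With fewer clusters, a cluster of 247 cells led by *Kitl*, *Pga5* and *Srgn* scored 1.64 as definitive and 1.61 as visceral endoderm and was left unnamed. The MS-LS level and the first ratio thus rested in part on how these cells were named. The 75 definitive endoderm-like cells of EHF alone held 20% of the *Apela* UMIs of their library, and 61.3% of them had a UMI.

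In extraembryonic mesoderm *Apela* was also higher at each stage than at the one before, at 8.05 CPM (3.68 to 15.3), 36.5 CPM (25.1 to 51.3) and 124 CPM (107 to 143). At EHF the extraembryonic mesoderm-like cluster, led by *Hoxc8*, *Pitx1* and *Hoxd9*, stood at 204 CPM (173 to 239), and the cluster of the same compartment led by *Tdo2*, *Tagln* and *Acta2* at 46.1 CPM (32.3 to 63.8). Epiblast-like cells had 47.9 CPM (41.5 to 54.9) at MS-LS and 132 CPM (119 to 146) at OB-EB. At EHF the caudal neuroectoderm-like cells had 189 CPM (165 to 216) and the rostral ones 34 CPM (25.5 to 44.5), the same order as for *Apln*. In the streak *Apela* stood at 49.0, 72.4 and 215 CPM and in mesoderm at 16.5, 18.2 and 31.8 CPM, and the log2 ratios of streak over mesoderm were 1.57 (0.92 to 2.26), 1.99 (1.04 to 2.96) and 2.76 (2.46 to 3.06). Visceral endoderm-like cells, the main site of *Apln*, had *Apela* at 7.17, 12.4 and 11.2 CPM, against 7.81, 11.8 and 6.15 CPM in extraembryonic ectoderm-like cells. The intervals of these classes overlapped at each stage.

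*Aplnr*, the receptor for both peptides, had 187, 302 and 466 UMIs in 168, 264 and 368 cells, or 10.4, 24.8 and 22.9 CPM. In the mesoderm compartment it stood at 46.6 CPM (37.1 to 57.9), 53.6 CPM (40.5 to 69.6) and 53.5 CPM (46.9 to 60.8), and these levels did not differ beyond their intervals. In the streak compartment it stood at 26.4 CPM (18.4 to 36.7), 46.1 CPM (25.2 to 77.3) and 12.9 CPM (7.52 to 20.7). The log2 ratio of streak over mesoderm was -0.82 (-1.44 to -0.23) at MS-LS, -0.22 (-1.18 to 0.65) at OB-EB and -2.05 (-2.86 to -1.34) at EHF, so that the receptor was lower in the streak in 2 of the 3 libraries. Epiblast-like cells had 1.17 CPM (0.381 to 2.74) at MS-LS and 5.28 CPM (2.95 to 8.70) at OB-EB, and the extraembryonic ectoderm-like cells 1.63 and 4.30 CPM. The visceral endoderm-like cells, with the most *Apln*, had *Aplnr* at 1.02, 2.47 and 3.13 CPM.

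Beyond the mesoderm, *Aplnr* was high in blood progenitors-like cells at OB-EB and in endothelium-like cells at EHF. In extraembryonic mesoderm it stood at 13.4 CPM at MS-LS, 28.8 CPM at OB-EB and 48.4 CPM at EHF. At OB-EB the blood progenitors-like cluster, led by *Fli1*, *Lmo2* and *Gadd45g*, stood at 81.6 CPM (57.8 to 112). At EHF endothelium-like cells stood at 107 CPM (81.6 to 138), with a UMI in 46.0% of cells, blood progenitors-like cells at 16.3 CPM (8.15 to 29.2) and erythroid-like cells at 3.51 CPM (0.426 to 12.7). The endothelium-like level lay above both blood levels, whose intervals overlapped. In node and notochord-like cells *Aplnr* had 1 UMI in 56 cells at MS-LS, 8 UMIs in 62 cells at OB-EB and 33 UMIs in 43 cells at EHF, the last at 193 CPM (133 to 271). In these cells the receptor was highest at the stage at which *Apela* was lowest. Among the EHF mesoderm classes, paraxial, presomitic and cardiac mesoderm-like cells had 70.0, 47.6 and 42.7 CPM, with overlapping intervals.

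*Cxcl12*, the chemokine, had 253, 173 and 346 UMIs in 215, 151 and 274 cells, or 14.1, 14.2 and 17.0 CPM. Epiblast and ectoderm held 44.7%, 54.9% and 43.1% of its UMIs. Epiblast-like cells stood at 26.5 CPM (21.8 to 31.9) at MS-LS and 33.4 CPM (27.0 to 40.9) at OB-EB. At EHF rostral neuroectoderm-like cells stood at 56.5 CPM (45.3 to 69.6) and caudal ones at 53.9 CPM (41.2 to 69.2), so the rostral and caudal levels did not differ beyond their intervals, unlike those of *Apln* and *Apela*. Among all clusters of the EHF library *Cxcl12* was highest in an unnamed cluster of 104 cells led by *Tfap2a*, *Gap43* and *Wnt6*, at 101 CPM (78.1 to 128), with a UMI in 45.2% of its cells, followed by an unnamed cluster led by *Ptn* and *Pim2* at 84.1 CPM (61.8 to 112). That first cluster was picked out after its value was seen. In the streak *Cxcl12* stood at 30.1 CPM (21.5 to 41.0) at MS-LS, at 3.29 CPM from 1 UMI at OB-EB and at 11.4 CPM (6.38 to 18.8) at EHF. The mesoderm had 6.25, 4.78 and 6.12 CPM, and the visceral endoderm-like cells 1.02, 0.824 and 1.79 CPM.

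*Cxcr4*, the receptor for *Cxcl12*, had 194, 196 and 44 UMIs in 167, 169 and 42 cells, or 10.8, 16.1 and 2.16 CPM. In mesoderm it stood at 46.6 CPM (37.1 to 57.9) at MS-LS, 33.5 CPM (23.3 to 46.6) at OB-EB and 4.99 CPM (3.13 to 7.56) at EHF. In definitive endoderm-like cells it stood at 29.0 CPM (20.4 to 40.0) and 45.2 CPM (30.3 to 65.0), and no UMI was found in the 75 cells at EHF, which allows up to 6.89 CPM and makes the log2 ratio to OB-EB at most -2.72. In extraembryonic mesoderm it stood at 26.8 CPM (18.1 to 38.3), 36.5 CPM (25.1 to 51.3) and 9.15 CPM (5.00 to 15.4), a log2 ratio of -2.0 (-3.01 to -1.05) between OB-EB and EHF. The lower level at EHF was thus seen in mesoderm, endoderm and extraembryonic mesoderm. No *Cxcr4* UMI was found in the node and notochord-like cells of any library. Epiblast-like cells had 1.64 and 3.17 CPM and extraembryonic ectoderm-like cells 1.95 and 3.23 CPM at MS-LS and OB-EB, with overlapping intervals.

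**Figure D2:**
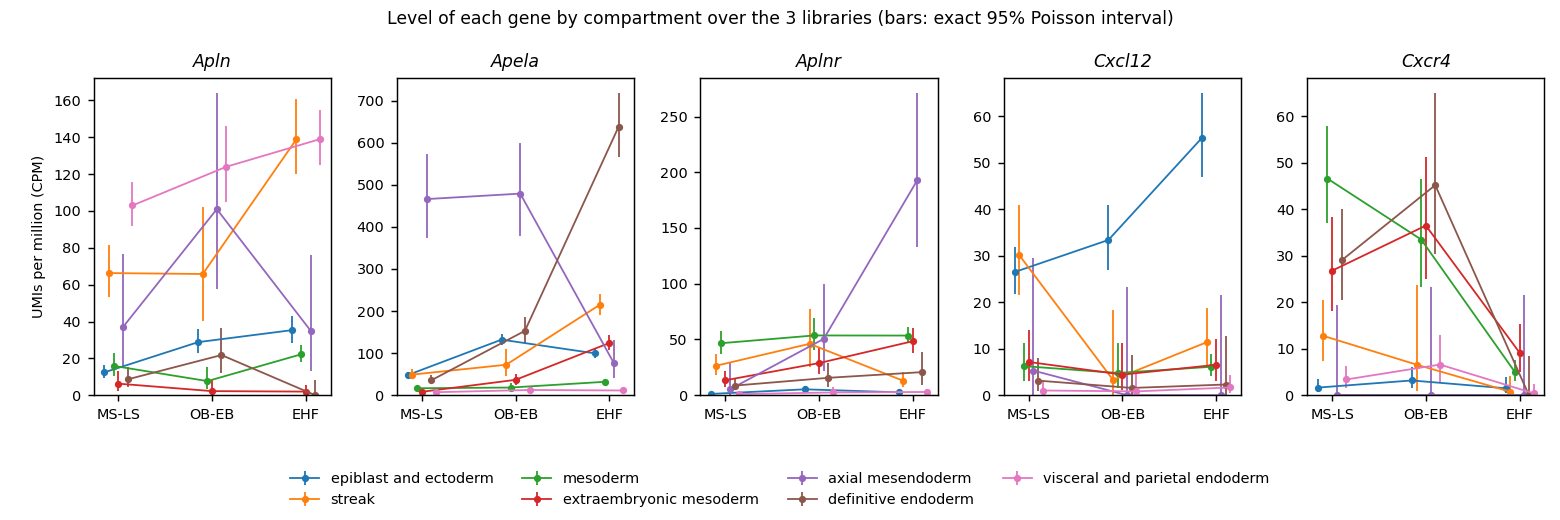
Level of each gene in CPM (y axis, a separate linear scale for each gene) in 7 compartments (colours) of the 3 libraries (x axis); points are the level and bars the exact 95% Poisson interval, and lines join the libraries of a compartment. *Apela* is highest in axial mesendoderm (node and notochord-like cells) at 466 and 479 CPM, and in definitive endoderm at 638 CPM at EHF, and *Cxcr4* is at most 9.15 CPM in these compartments at EHF.

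The comparison of streak with mesoderm set the cells at and near the site of ingression against mesoderm classes. At EHF the streak compartment was caudal epiblast-like, with a cluster led by *Nkx1-2*, *Hes3* and *Nefm*, and the mesoderm included a cluster of 123 cells led by *Fgf4*, *Gal* and *Mixl1*. At MS-LS 3 of the 5 genes were at least 2-fold higher in the streak, *Apln*, *Apela* and *Cxcl12*, against 4.51% of 7721 genes with at least 20 UMIs over both compartments. In the same library 1 of 5, *Cxcr4*, was at least 2-fold higher in mesoderm, against 2.93% of genes. At OB-EB *Cxcl12* had too few UMIs to enter, and 2 of the other 4 were higher in the streak against 3.21% of 5289 genes, and 1 was higher in mesoderm against 7.45%. At EHF 2 of 5 were higher in the streak against 3.87% of 10060 genes, and 2 of 5, the receptors, were higher in mesoderm against 7.86%. The genes were chosen with earlier results of these data known, so these counts are a description. *Cxcr4* had log2 ratios of -1.86 (-2.71 to -1.10), -2.35 (-5.45 to -0.39) and -2.72 (-8.08 to -0.09), the last from 1 UMI against 22. *Cxcl12* had 2.27 (1.28 to 3.38), -0.54 (-6.10 to 2.62) and 0.90 (-0.12 to 1.86). With the EHF library divided into fewer clusters, the streak was a cluster of 246 cells led by *Wnt3a*, *Mixl1* and *Fgf17*, and the ratio of *Aplnr* was 0.07 (-0.34 to 0.47) and that of *Cxcl12* -2.35 (-5.47 to -0.36). The lower *Aplnr* of the EHF streak thus rested on how finely the cells were clustered.

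At MS-LS a cluster of 227 cells led by *Fst*, *Fgf8* and *Nefl*, and another of 111 cells led by *Nefl*, *Fst* and *Nanog*, scored highest as primitive streak. Both were left out, each with 2 detected markers. The larger cluster had *Apln* at 59.9 CPM (44.3 to 79.2), *Apela* at 58.7 CPM (43.3 to 77.8), *Aplnr* at 8.56 CPM (3.44 to 17.6), *Cxcl12* at 37.9 CPM (25.8 to 53.8) and no *Cxcr4* UMI. Its ligand levels overlapped those of the named streak, and its *Aplnr* level lay below. At OB-EB a cluster of 201 cells, led by *T*, *Mixl1* and *Meis2*, scored nearly equally as primitive streak-like and nascent mesoderm-like and was left out. Its cells had *Apln* at 53.2 CPM (40.4 to 68.7), *Apela* at 67.8 CPM (53.3 to 85.2), *Aplnr* at 59.6 CPM (46.0 to 76.0), *Cxcl12* at 12.8 CPM (7.02 to 21.5) and *Cxcr4* at 35.8 CPM (25.4 to 48.9). The intervals of *Apln* and *Apela* overlapped those of the streak, and the intervals of *Aplnr* and *Cxcr4* those of the mesoderm. When this cluster was added to the streak, the log2 ratio of streak over mesoderm for *Cxcr4* at OB-EB was -0.19 (-0.87 to 0.51). With the study's own cell lists for primitive streak and nascent mesoderm at MS-LS, all 5 ratios lay within the intervals above.

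**Figure D3:**
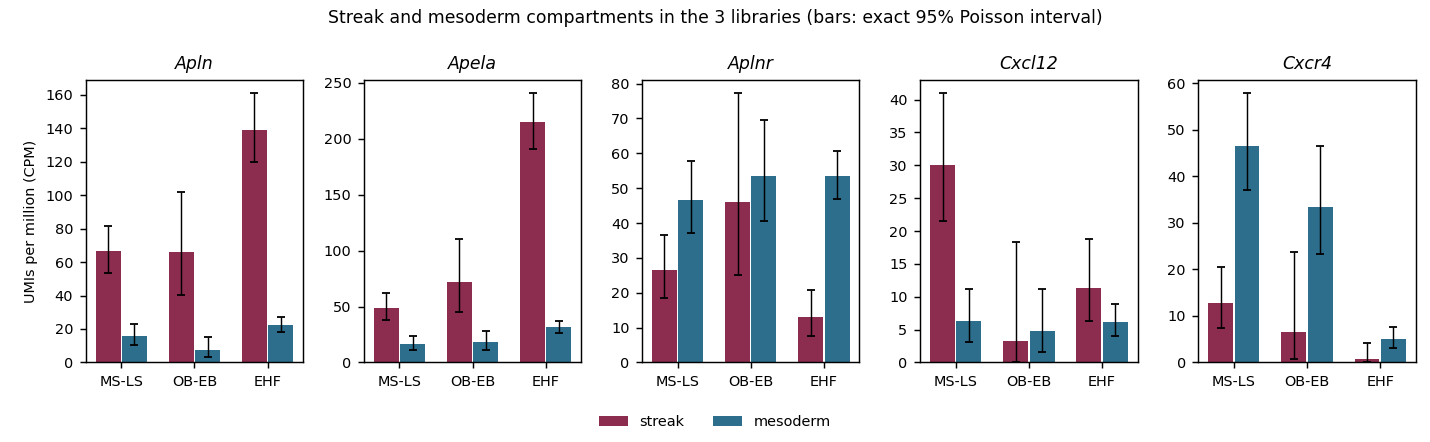
Level of each gene in CPM (y axis, linear from 0, a separate scale for each gene) in the streak and mesoderm compartments of the 3 libraries (x axis); bars are the level and error bars the exact 95% Poisson interval. *Apln* and *Apela* are higher in the streak in all 3 libraries, and *Cxcr4* is higher in mesoderm, with 46.6 CPM at MS-LS. The streak level of *Cxcr4* rests on 2 UMIs at OB-EB and 1 UMI at EHF. With the left-out cluster of 201 cells added to the OB-EB streak, the interval of its ratio held 0.

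Between stages, the median log2 ratio of all genes was -0.18 in the streak and -0.10 in mesoderm for OB-EB over MS-LS, and 0.34 and 0.44 for EHF over OB-EB. From MS-LS to OB-EB in the streak no gene of the 4 with enough UMIs was at least 2-fold higher, against 5.02% of 6050 genes, and 1, *Cxcl12*, was lower, against 15.7%. Its log2 ratio was -3.19 (-8.53 to -0.63), from 1 UMI against 40, and that of *Apln* was -0.01 (-0.79 to 0.70). The OB-EB streak leaves out the cluster led by *T*, *Mixl1* and *Meis2*, in which 12 of 201 cells had a *Cxcl12* UMI. In mesoderm none of 4 was higher, against 5.06% of 7331 genes, and 1, *Apln*, was lower, against 6.25%, with a log2 ratio of -1.06 (-2.40 to 0.11) whose interval reached 0. That ratio was 0.42 (-0.50 to 1.31) with fewer clusters and 0.53 (-1.59 to 2.65) in female cells, so its direction was not stable. From OB-EB to EHF in the streak 2 of 3, *Apln* and *Apela*, were higher, against 23.6% of 6405 genes, and 1, *Aplnr*, was lower, against 6.57%. Their log2 ratios were 1.08 (0.41 to 1.82), 1.57 (0.94 to 2.27) and -1.84 (-2.94 to -0.70). These ratios set caudal epiblast-like cells at EHF against a cluster led by *T*, *Gas1* and *Mixl1* at OB-EB. The lower *Aplnr* of the EHF streak rested on how finely the cells were clustered, and its stage ratio carries the same limit. In mesoderm 1 of 5, *Apln*, was higher, against 24.9% of 9819 genes, so its count is at the background, and with fewer clusters its log2 ratio was -0.65 (-1.52 to 0.26). The gene that was lower, *Cxcr4*, had a log2 ratio of -2.75 (-3.59 to -1.94), against 5.87% of genes. *Aplnr* in mesoderm had a log2 ratio of -0.00 (-0.43 to 0.45), against a median of 0.44 over all genes. These mesoderm ratios also set unlike cells side by side, presomitic, paraxial, cardiac or unresolved mesoderm at EHF against nascent mesoderm-like cells at OB-EB.

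The EHF mesoderm was divided by the reporter, which also stays on in the descendants of the cells that expressed *T*. Of the 739 cells, 248 had a tdTomato UMI and 491 had none, and a cell without a UMI may still carry the label. *Apln* was at 35.5 CPM in the former and 15.2 CPM in the latter, a log2 ratio of 1.22 (0.62 to 1.83), and it was the 1 gene of 5 at least 2-fold higher, against 2.02% of 9397 genes. *Cxcr4* was the 1 gene of 5 at least 2-fold higher in the cells without a tdTomato UMI, against 3.15% of genes. It had 3 UMIs against 19, 1.97 and 6.58 CPM, and its log2 ratio of -1.74 (-4.14 to 0.03) had an interval that reached 0. *Apela* had a log2 ratio of 0.59 (0.09 to 1.09), and *Aplnr* and *Cxcl12* had 0.10 (-0.30 to 0.49) and 0.82 (-0.39 to 2.02). The paper reports, with another cutoff for the label, that labelled cells of this stage were more frequent in posterior than in anterior mesoderm. Whether the ratios above held within single mesoderm classes was not tested.

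Whether ligand and receptor were found in the same cell was counted over whole libraries. Of the cells with an *Aplnr* UMI, 24 of 168 (14.3%, 9.37 to 20.5) also had *Apln* at MS-LS, 23 of 264 (8.71%, 5.60 to 12.8) at OB-EB and 35 of 368 (9.51%, 6.71 to 13) at EHF. Among cells without *Aplnr*, the shares with *Apln* were 11.1% (10.0 to 12.2), 8.10% (7.24 to 9.02) and 14.5% (13.3 to 15.8). The intervals overlapped at the first 2 stages, and at EHF the share was lower among *Aplnr* cells over the whole library. Within the EHF mesoderm *Apln* was found in 9.84% (6.03 to 14.9) of the *Aplnr* cells and 9.89% (7.52 to 12.7) of the others, and in the streak in 69.2% (38.6 to 90.9) and 47.9% (41.2 to 54.8). The lower share was thus not seen within these compartments. In female cells of the whole library *Apln* was found in 13.4% of the *Aplnr* cells, and the share among the other female cells is not given here. The cells with *Aplnr* were the deeper ones, with a median of 6081 UMIs at EHF against 5504.5 in the others. After thinning to 2000 UMIs, 2 of 135 *Aplnr* cells at EHF had *Apln* (1.48%, 0.180 to 5.25) against 6.20% (5.37 to 7.11) of the other cells. *Apela* was found in 9.52%, 8.71% and 16.8% of *Aplnr* cells against 10.0%, 12.8% and 19.3% of the others.

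For the chemokine pair the overlap was 8, 2 and 4 cells. *Cxcl12* was found in 4.79% (2.09 to 9.22), 1.18% (0.144 to 4.21) and 9.52% (2.66 to 22.6) of *Cxcr4* cells, against 5.97%, 3.90% and 7.82% of the cells without *Cxcr4*. Thinning left 1, 1 and 0 such cells. Over whole libraries the receptors *Aplnr* and *Cxcr4* were found together more often. Of *Cxcr4* cells, 21 of 167 (12.6%, 7.96 to 18.6) had *Aplnr* at MS-LS, 23 of 169 (13.6%, 8.83 to 19.7) at OB-EB and 9 of 42 (21.4%, 10.3 to 36.8) at EHF, against 4.24% (3.59 to 4.96), 6.30% (5.55 to 7.12) and 10.4% (9.40 to 11.5) of the other cells. As a share of the *Aplnr* cells the same cells made up 12.5%, 8.71% and 2.45%. Within the mesoderm alone the shares were close, 26.9% of *Cxcr4* cells against 20.9% of the other cells at MS-LS, 17.2% against 17.2% at OB-EB and 28.6% against 26.0% at EHF. In extraembryonic mesoderm 0 of 26 *Cxcr4* cells at MS-LS and 0 of 30 at OB-EB had *Aplnr*, against 6.41% and 10.9% of the others, with overlapping intervals. In definitive endoderm 0 of 32 and 2 of 24 had it, against 3.59% and 4.17%. After thinning, 7.04% (2.33 to 15.7) of *Cxcr4* cells at MS-LS had *Aplnr* against 1.5% (1.12 to 1.97) of the others, 8.60% (3.79 to 16.2) against 4.5% (3.77 to 5.32) at OB-EB, and 1 of 15 at EHF.

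The ligands *Apln* and *Apela* were found together in 62, 62 and 161 cells. These were 15.2%, 19.1% and 33.0% of the *Apln* cells and 17.1%, 12.4% and 24.2% of the *Apela* cells. Among cells without *Apela*, 10.6%, 7.53% and 11.6% had *Apln*. At EHF 81 of the 161 were caudal epiblast-like cells, and they made up 71.1% of the *Apln* cells of that class. Another 46 lay in the neuroectoderm-like classes, where they made up 60.5% of the *Apln* cells. After thinning, *Apln* was found in 24.1% (15.1 to 35.0) of the *Apela* cells of the caudal epiblast and 23.2% (16.7 to 30.7) of its other cells. In the neuroectoderm-like cells it was found in 21.7% (12.1 to 34.2) against 5.41% (3.12 to 8.63), in a group that joins the rostral cells with the caudal ones, where both genes were higher. In visceral and parietal endoderm, the other site of *Apln*, the overlap was 4 cells at MS-LS and 5 cells at EHF, or 2.17% and 2.82% of the *Apln* cells. Over the whole library, thinning at EHF left 36 cells with both, 11.2% (7.95 to 15.1) of the *Apela* cells, against 5.41% (4.61 to 6.31) of the cells without *Apela*.

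A cluster of the EHF mesoderm held both *Apln* and its receptor at high levels, and was picked out after its values were seen. Its 123 cells were led by *Fgf4*, *Gal*, *Mixl1*, *Fgf17* and *Wnt3a* and scored between caudal mesoderm-like and presomitic mesoderm-like. *Apln* stood there at 90.1 CPM (69.0 to 115) and *Aplnr* at 79.9 CPM (60.2 to 104), each with a UMI in 40 cells. The 12 cells with both made up 30% of the cells of each gene, against 33.7% of the cells without *Aplnr* that had *Apln*. Ligand and receptor were thus in the same cluster, and the share of cells with the ligand did not differ between cells with and without the receptor beyond the intervals.

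**Figure D4:**
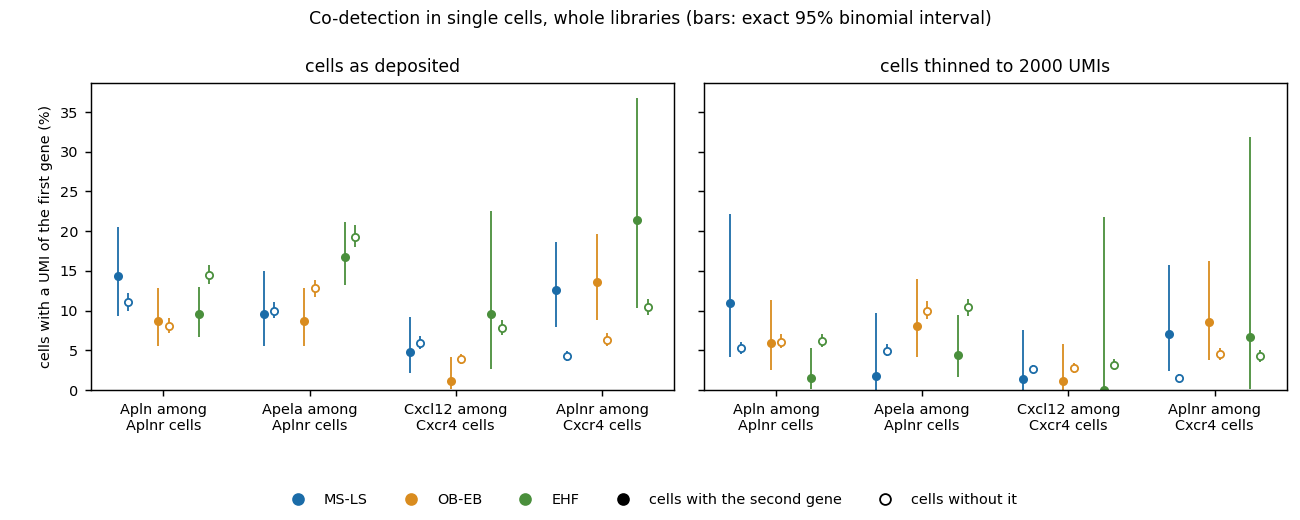
Percent of cells with a UMI of the first gene (y axis, linear from 0) among cells with (filled points) and without (open points) a UMI of the second gene, for 4 pairs in the 3 libraries (colours), as deposited (left) and thinned to 2000 UMIs (right); bars are exact 95% binomial intervals. *Aplnr* is seen in more of the *Cxcr4* cells than of the other cells of the whole MS-LS library, 12.6% against 4.24%, with closer shares within mesoderm (26.9% against 20.9%). *Apln* is seen in fewer of the *Aplnr* cells of the whole EHF library, 9.51% against 14.5%, which mixes cell types and was not seen within mesoderm (9.84% against 9.89%).

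To place each gene among others, profiles of log2(CPM + 10) were compared over 32 named classes of at least 30 cells in the 3 libraries, among 9514 genes with at least 200 UMIs. The classes share libraries, depth and relatives among themselves, so the correlations are a description. The 3 genes nearest to *Apln* were *Tdh* (r = 0.857), *Sema6a* (0.794) and *Tspan13* (0.781), those nearest to *Apela* were *Tpbg* (0.822), *Creld1* (0.784) and *C330021F23Rik* (0.779), and those nearest to *Aplnr* were *Ifitm1* (0.836), *Rspo3* (0.756) and *Notch1* (0.751). *Cxcl12* was nearest to *Fam57b* (0.852), *Pdzd4* (0.840) and *Elavl3* (0.835). *Cxcr4* was nearest to *Pcdh7* (0.877), *Gm37720* (0.812) and *Mesp1* (0.808), of which *Gm37720* lies within *Pcdh7* on the same strand, so that their counts may share reads, and *Mesp1* was among the markers of nascent mesoderm. *Rspo3* was likewise among the markers of caudal mesoderm. Within the 5 genes the highest correlation was between *Apln* and *Apela* (0.328). For the pairs of ligand and receptor it was -0.110 for *Apln* and *Aplnr*, 0.092 for *Apela* and *Aplnr*, and 0.020 for *Cxcl12* and *Cxcr4*.

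A list of 33 other genes of these pathways, namely other receptors and ligands, peptide processing enzymes, G proteins, arrestins, kinases and migration effectors, was set beside the 5. Of these, *Grk2* and *Grk3*, kinases that act on activated receptors, were found as *Adrbk1* and *Adrbk2*. *Ackr3*, the other receptor for Cxcl12, had 48, 12 and 22 UMIs in the 3 libraries and reached the 20 UMIs over both groups in no comparison. Of the list, 0 of 21 genes were at least 2-fold higher in the streak and 1 in mesoderm at MS-LS, beside 4.51% and 2.93% of all genes. At OB-EB 0 of 16 were called in either direction, beside 3.21% and 7.45%, and at EHF 0 and 3 of 26, beside 3.87% and 7.86%. The median log2 ratios of the list were 0.09, -0.01 and -0.12, against 0.06, -0.01 and -0.04 over all genes. *Furin*, a convertase that processes propeptides, stood at 3.80 CPM in the streak and 11.1 CPM in mesoderm at EHF, a log2 ratio of -1.55 (-3.23 to -0.23). Between stages the genes named for the size of their ratio were, for EHF over OB-EB mesoderm, *Pxn* (2.45, 0.51 to 5.54), *Ptk2* (1.79, 0.82 to 2.95) and *Arrb2* (1.38, 0.07 to 3.06), and *Hmgb1* (-1.71, -1.77 to -1.65). These encode a pair of focal adhesion proteins, an arrestin and a chromatin protein that can bind Cxcl12. *Gnb1*, a G protein subunit, had -1.64 (-1.87 to -1.40) for EHF over OB-EB in the streak. Over whole libraries *Hmgb1* stood at 1396, 3404 and 919 CPM and *Gnb1* at 298, 888 and 276 CPM, so both were higher in the OB-EB library as a whole. In all, 6 of 25 genes were higher and 2 lower in EHF mesoderm than in OB-EB mesoderm, beside 24.9% and 5.87% of all genes.

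Since *Apln* lies on the X chromosome and the pools differed in their sex, levels were compared between cells called female and male. *Apln* stood at 32.3 and 34.2 CPM in female and male cells at MS-LS, 43.1 and 36.2 CPM at OB-EB and 39.4 and 49.0 CPM at EHF. Its log2 ratios of female over male were -0.08 (-0.41 to 0.24), 0.25 (-0.13 to 0.64) and -0.31 (-0.63 to 0.01), each with an interval that reached 0. In the same cells *Apela* and *Cxcr4* at MS-LS were lower in female cells, with log2 ratios of -0.64 (-1.0 to -0.28) and -0.82 (-1.48 to -0.19). The sexes are also different embryos of a pool, so sex, stage within the pool and embryo cannot be told apart.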

How the data were processed

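Single-cell libraries were made with the Chromium 3′ v2 chemistry from pooled embryos, 1 library per stage. The authors aligned the reads with Cell Ranger 3.0.2 to GRCm38 with the tdTomato sequence added and deposited tables of raw UMI counts per gene and cell, from which they had removed cells low in genes or UMIs or rich in mitochondrial RNA (R 3.6.1, Seurat 3). A second EHF table held the same counts in all 65128160 places and was counted as the same library.

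The members and gene lists were chosen with earlier results of these data known. Cells of each library were log-normalised (scale factor 10000) and clustered in R 4.3.3 with Seurat 5.3.0 on 2000 variable genes with the 5 genes and the pathway list held out, 50 principal components and resolution 4.5. A cluster was named from its best-scoring marker list where at least 3 markers were detected, in 20% of cells and at 2-fold the level of the other cells. Its score also had to lead the next by 0.2, and no other list could have more markers among the cluster's leading genes. A cluster of low depth with no marker of its list among the leading genes was left unnamed. UMIs were summed per group and given with exact Poisson, binomial or conditional binomial 95% intervals (scipy 1.17.1). These, and the floor of 3 UMIs over a group, cover counting error only. A gene entered a comparison with 20 UMIs or more in the groups together, and a 2-fold difference was called. For co-detection, cells were thinned to 2000 UMIs. Beside the 5 genes, up to 6 pathway genes with the largest ratios whose interval lay off 0 and the 3 genes most like each member in profile were named, mitochondrial, ribosomal protein and vector features left out. Leading genes were named by fold among genes found in 25% of a cluster's cells. Scrublet (scanpy 1.11.5) marked 8, 0 and 16 cells as doublets, too few to be informative, so none were removed, and leaving out the 182, 200 and 175 cells with the highest scores was an alternative. The summing and interval steps were tested on simulated data.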

Additional observations from a re-analysis of the deposited data

How the results depend on the processing

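No paired analysis was possible because each stage is 1 library. Of the log2 ratios and co-detection percentages recomputed, 287 lay within the interval of the reported value. Another 40 lay outside it or were only a bound, which was counted here even where it lay inside the interval. A further 3 whose interval lay off 0 changed sign. Values whose interval held 0 changed sign under several alternatives, some of them given below. None left its interval with another depth, mitochondrial or doublet limit, another scale, the 5 genes added to the clustering genes or the study's cell lists. The OB-EB streak was not found as a compartment with coarser clustering, with the 5 genes among the clustering genes or among cells of at least 2000 UMIs. Levels at the coarser clustering stayed in 107 cases and moved in 13, and of the shares of all genes called, 10 of 16 moved when 50 UMIs were required. The cause of each change was not tested.

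At resolution 2, streak over mesoderm at EHF gave 3.90 for *Apln*, 2.01 for *Apela*, 0.07 for *Aplnr* and -2.35 for *Cxcl12*. In mesoderm, OB-EB over MS-LS gave 0.42 for *Apln* and 0.77 for *Aplnr*, and EHF over OB-EB gave -0.65 for *Apln* and 1.64 for *Apela*. Without a naming margin, *Cxcr4* had -0.19 for streak over mesoderm at OB-EB and 1.20 for OB-EB over MS-LS in the streak.

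In female cells alone, streak over mesoderm was -2.21 for *Aplnr* at MS-LS, 0.57 for *Apela* at OB-EB and at most -0.16 for *Cxcr4* at OB-EB. OB-EB over MS-LS was 2.43 for *Aplnr* and at most -0.66 for *Cxcl12* in the streak, and 0.53 for *Apln* and 2.12 for *Apela* in mesoderm. EHF over OB-EB in mesoderm was 0.30 for *Apln* and -0.09 for *Apela*. *Aplnr* was found in 29.6% of *Cxcr4* cells at MS-LS and *Apln* in 13.4% of *Aplnr* cells at EHF. In male cells alone, streak over mesoderm was 0.30 for *Apela* and 3.93 for *Cxcl12* at MS-LS and at most -1.37 for *Aplnr* at EHF. EHF over OB-EB was at least 0.81 for *Apln* in the streak and -4.0 for *Cxcr4* in mesoderm, and OB-EB over MS-LS was -1.72 for *Apela* in mesoderm. At MS-LS *Apela* was found in 15.9% of *Aplnr* cells, and *Cxcl12* and *Aplnr* in 9.62% and 7.69% of *Cxcr4* cells. At OB-EB *Apln* and *Apela* were found in 0% and 5.36% of *Aplnr* cells and *Cxcl12* in 0% of *Cxcr4* cells, and at EHF *Cxcl12* and *Aplnr* each in 0% of *Cxcr4* cells. A further 8 ratios were bounds without a direction in cells of 1 sex.

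After thinning to 2000 UMIs, *Apela* was found in 1.82% of *Aplnr* cells at MS-LS and 4.44% at EHF, and *Apln* in 1.48% at EHF. *Cxcl12* was found in 1.41% of *Cxcr4* cells at MS-LS and 0% at EHF, and *Aplnr* in 7.04%, 8.60% and 6.67% at the 3 stages.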
